A study of Homo sapiens with 42 samples.

Results

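The basic helix-loop-helix PAS (bHLH-PAS) genes described here were HIF3A, ARNT2, AHR, AHRR, NPAS2, SIM2, CLOCK, ARNTL and ARNTL2. They were the rows of the count tables that carry one of these 9 symbols, which gave 10 of 60609 gene rows because AHRR is listed under 2 gene IDs. The genes whose proteins were manipulated in the study, HIF1A, EPAS1 (which encodes HIF-2α) and ARNT (which encodes HIF-1β), were not among them.

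bHLH-PAS proteins bind DNA as dimers. In HIF and AHR dimers a subunit is limited by a signal, oxygen for the HIF-α proteins and small aromatic ligands for AHR. This subunit pairs through its PAS domains with a general partner of the ARNT group. The dimers recognise a short element with the core CGTG. ARNT2 is a close homologue of HIF-1β that can also pair with HIF-α proteins, ARNTL (BMAL1) and ARNTL2 (BMAL2) are the partners of CLOCK and NPAS2, AHRR competes with AHR for its partner, and HIF3A and SIM2 encode subunits known mainly as inhibitors of HIF-driven or ARNT-driven transcription.

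All 42 libraries came from 786-O, a human clear cell renal carcinoma line without functional VHL, in which HIF-2α escapes degradation and HIF-1α is truncated and not functional, so the WT controls carried these defects too. Batch 1 held 27 polyA RNA-seq libraries, 3 of each of 9 groups, namely WT cells, the HIF-1β KIN clone A21 and HIF-2α KIN clone A31 with a V5-Halo tag knocked in at the endogenous gene, and lines with exogenous V5-Halo-tagged HIF-1α, HIF-1α R30E, HIF-1αDM (R170A-V191D), HIF-2α, HIF-2α R27E or HIF-2αDM (R171A-V192D). R30E and R27E are mutations in the DNA-binding domain and DM stands for a dimerization mutant. Batch 2 held 15 libraries, 3 each of WT, HIF-1α, HIF-2α and the chimeras HIF-2α/1α and HIF-1α/2α, named with the source of the structured N-terminal part first and that of the intrinsically disordered region (IDR) second. The genotype label of the HIF-2αDM libraries names HIF-1α, but their titles name HIF-2α, and the EPAS1 counts below go with the titles. Each KIN line was 1 clone, and the exogenous lines carried a PiggyBac transgene driven by an L30 promoter and were puromycin-selected, unlike WT, so that transgene and selection cannot be told apart in a comparison with WT. The study's methods call the libraries of a group biological replicates. P-values measure the spread between such replicates within a line or clone, shared over all groups fitted together.

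Total counts ran from 42377599 to 101186554 per library in batch 1 and from 76366799 to 109642159 in batch 2, so that 3 reads, taken here as the detection floor, corresponded to 0.0274 to 0.0708 CPM (counts scaled to the library total). HIF1A normalized counts were 243 ± 16.8 (SD, n = 3) in WT of batch 1 and 3036 ± 215, 2518 ± 275 and 2238 ± 273 in the HIF-1α, R30E and DM lines. EPAS1 was at 14547 ± 2124 in WT against 45191 ± 6574, 56142 ± 9777 and 48508 ± 5234 in the HIF-2α, R27E and HIF-2αDM lines, and at 6159 ± 511 in the HIF-2α KIN clone. The 9 renal and line markers examined were above the floor in every library, whereas CD3E was at 0 throughout and PTPRC, PECAM1 and CDH5 did not exceed 0.114 CPM, and COL1A1 and ACTA2 were detected in every library at up to 31.8 CPM.

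The stretches upstream of the start sites of 3 genes that differed from WT in several lines, and of HIF3A, are shown so that the elements that bHLH-PAS dimers bind can be looked for in them. Each is the 250 bases before a RefSeq start on GRCh38.p14, read 5′ to 3′ on the gene's strand, with capitals marking ACGTG or GCGTG on either strand, the core of a hypoxia response element. ARNTL2 lies on chromosome 12 and its window is chr12:27332586-27332835, AHR is on chromosome 7 (chr7:17298402-17298651), NPAS2 on chromosome 2 (chr2:100819889-100820138) and HIF3A on chromosome 19 (chr19:46296792-46297041), all on the plus strand. None of these windows overlaps an annotated exon of its gene, and that of AHR lies within the span of the longer GENCODE v44 gene.
ARNTL2: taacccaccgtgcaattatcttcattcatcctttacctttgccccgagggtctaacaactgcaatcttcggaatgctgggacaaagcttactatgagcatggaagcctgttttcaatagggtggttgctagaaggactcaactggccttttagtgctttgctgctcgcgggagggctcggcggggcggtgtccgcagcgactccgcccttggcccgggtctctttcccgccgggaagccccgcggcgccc
AHR: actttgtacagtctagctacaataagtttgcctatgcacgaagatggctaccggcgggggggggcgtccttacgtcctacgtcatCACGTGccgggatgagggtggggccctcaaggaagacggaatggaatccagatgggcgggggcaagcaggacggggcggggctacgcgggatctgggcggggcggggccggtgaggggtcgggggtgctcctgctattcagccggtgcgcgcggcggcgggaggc
NPAS2: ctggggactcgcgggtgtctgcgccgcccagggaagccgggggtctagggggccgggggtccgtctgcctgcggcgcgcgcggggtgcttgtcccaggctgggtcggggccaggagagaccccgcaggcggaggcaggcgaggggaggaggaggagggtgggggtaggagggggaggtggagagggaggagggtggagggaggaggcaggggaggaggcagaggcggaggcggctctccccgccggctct
HIF3A: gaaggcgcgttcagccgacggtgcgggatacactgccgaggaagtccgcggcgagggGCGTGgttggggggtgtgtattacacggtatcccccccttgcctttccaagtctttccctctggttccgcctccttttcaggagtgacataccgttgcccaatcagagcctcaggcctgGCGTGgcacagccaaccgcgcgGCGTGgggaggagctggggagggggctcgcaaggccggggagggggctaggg

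ARNTL2 and NPAS2 held neither form of the core in these windows. In AHR the capitals form a single CACGTG, the palindromic E-box that CLOCK dimers recognise, which contains ACGTG on both strands and begins 165 bases before the start. HIF3A held GCGTG 3 times in the window shown, at 193, 74 and 52 bases before that start. The windows of its other RefSeq starts (chr19:46298126-46298375 and chr19:46303369-46303618), which are not shown, held neither form of the core. The table of RefSeq promoters had entries for 7 of the 9 symbols, in 12 windows, and 5 of these windows held the HIF core against 43.2% of all 35116 windows of the same length. CACGTG was found in 1 of the 12, against 6.34% of all windows, and GCGTG alone, which is also the core of the AHR element, occurs in 32.2% of all windows. These matches describe letters only.

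HIF3A was silent at this depth in every condition. Its gene (chr19:46297042-46343433 on hg38) received 3 reads over the 27 libraries of batch 1, 1 each in a WT, an R30E and a HIF-1αDM library, and 0 reads in all 15 libraries of batch 2. Every library was thus under the floor of 3 reads, and HIF3A was too low to be tested. No difference between lines was detectable for it, in cells in which HIF-2α, or both HIF-α isoforms, were abundant.

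The other 8 genes were read in both batches, at levels that differed by orders of magnitude. Per kilobase of exon (GENCODE v44 lengths), ARNTL2 was the most abundant in WT of batch 1 at 6.07 ± 0.187 CPM per kilobase (SD, n = 3), followed by ARNT2 at 2.24 ± 0.223, CLOCK at 1.68 ± 0.10, AHR at 1.59 ± 0.163, ARNTL at 0.792 ± 0.0437 and NPAS2 at 0.230 ± 0.0355. The values of CLOCK and AHR lay within their SDs of each other. SIM2, at 0.00591 ± 0.00198, and AHRR, at 0.00394 ± 0.00348, were near the floor. In both batches the AHRR value is that of ENSG00000063438 alone. The other AHRR ID, ENSG00000286169, has no GENCODE v44 length and was not ranked. It had 16 to 49 reads per WT library in batch 1 and 23 to 39 in batch 2.
In WT of batch 2 the order was ARNTL2 at 15.3 ± 0.494, CLOCK at 5.01 ± 0.339, AHR at 3.53 ± 0.281, ARNT2 at 2.26 ± 0.0746, ARNTL at 1.32 ± 0.186, NPAS2 at 0.151 ± 0.0360, SIM2 at 0.0318 ± 0.00483 and AHRR at 0.00259 ± 0.00189 CPM per kilobase. The batches differed in RNA extraction, library kit and read length, so their levels cannot be told apart from these and were not compared. In the following, normalized counts are counts scaled to a common effective library size within a batch, and differences are log2 fold changes from edgeR's quasi-likelihood test over all groups of the batch, with Benjamini-Hochberg adjustment over all genes tested. A gene was called at an adjusted p of 0.01 or less with a fold change of at least 2, and genes with an adjusted p of 0.01 or less but a smaller fold are given as such. All comparisons with WT in a batch share the same 3 WT libraries.

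**Figure D1:**
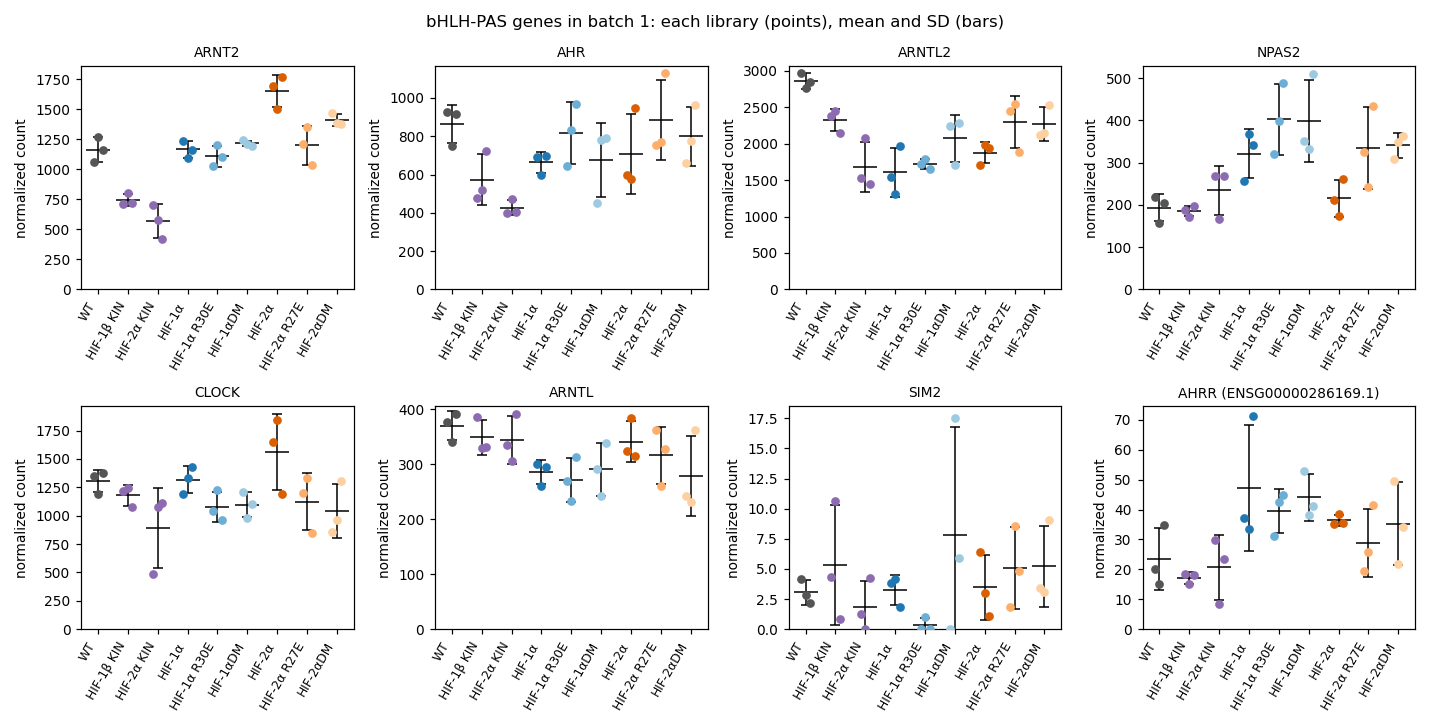
Normalized counts of 8 bHLH-PAS gene rows in the 9 groups of batch 1. Each point is a library, the horizontal bar is the mean and the whisker the SD of 3 libraries (cut at 0), and each vertical axis starts at 0. ARNTL2 in the 3 WT libraries lies between 2764 and 2978, above every other library, and ARNT2 is lowest in the HIF-2α KIN clone and highest in the HIF-2α line.

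ARNTL2 was the member that stood lower than WT most widely. Its normalized counts in WT of batch 1 were 2978, 2764 and 2843, and all 24 other libraries lay between 1309 and 2552. They were 1532, 2076 and 1447 in the HIF-2α KIN clone, 1543, 1309 and 1966 in the HIF-1α line and 1719, 1791 and 1647 in the R30E line.
No library of these 3 groups reached the lowest WT library. The log2 fold change was -0.76 in the HIF-2α KIN clone (SE 0.17, edgeR adjusted p = 0.00267), -0.83 with HIF-1α (SE 0.17, edgeR adjusted p = 0.00125) and -0.73 with R30E (SE 0.17, edgeR adjusted p = 0.00527), in each case below the 2-fold limit. ARNTL2 was the only one of 9 tested rows to pass the p threshold downwards in the last 2 comparisons, where 1.04% and 0.94% of all tested genes did. The HIF-2α line, at 1709, 1977 and 1937, was close to the threshold, with a log2 fold change of -0.62 (SE 0.17, edgeR adjusted p = 0.0107), and passed it with DESeq2 (-0.55, adjusted p = 0.00632). The other 4 groups had log2 fold changes between -0.45 and -0.30 with edgeR adjusted p from 0.357 to 0.765, and the 95% interval in the HIF-1β KIN clone, for example, was -0.64 to 0.03. ARNTL2 was the only member whose 3 WT libraries all lay above every other library of batch 1, which held for 0.346% of all tested genes.
These batch 1 changes of ARNTL2 were sensitive to single libraries. That of the HIF-1α line passed in 5 of 6 fits that each left out 1 library, and without HIF-1α replicate 2 it was -0.70 with an edgeR adjusted p of 0.0194. That of the HIF-2α KIN clone was lost without WT replicate 1, KIN replicate 1 or KIN replicate 3 (edgeR adjusted p = 0.0125, 0.0214 and 0.0232). In the R30E line no fit with 1 library left out passed, with edgeR adjusted p from 0.0137 to 0.0324.

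In batch 2 the spread was smaller and the same gene was lower than WT in all 4 lines. WT libraries gave 9745, 9869 and 9317 normalized counts of ARNTL2 and the other 12 lay between 5469 and 7622. They were 6265, 6403 and 6224 with HIF-1α, 5788, 6118 and 6086 with HIF-2α, 5469, 5992 and 6134 in HIF-2α/1α, and 7622, 7274 and 6633 in HIF-1α/2α.
The groups fell in the order WT, HIF-1α/2α, HIF-1α, HIF-2α and HIF-2α/1α, of which only the last 2 overlapped. ARNTL2 fell by 0.62 (SE 0.06, edgeR adjusted p = 7.40e-12), 0.67 (SE 0.06, edgeR adjusted p = 2.91e-13), 0.70 (SE 0.06, edgeR adjusted p = 2.00e-13) and 0.41 (SE 0.06, edgeR adjusted p = 9.23e-08) on the log2 scale in the lines with HIF-1α, HIF-2α, HIF-2α/1α and HIF-1α/2α, in this order. None of these was 2-fold, and each was kept in every fit that left out 1 of its libraries. HIF-1α/2α was above HIF-2α by 0.26 (SE 0.06, edgeR adjusted p = 7.15e-04) and above HIF-1α by 0.21 (SE 0.06, edgeR adjusted p = 0.00519). Without HIF-2α replicate 1 the former missed the threshold, with an edgeR adjusted p of 0.0117. The latter was lost in 5 of 6 fits with 1 library left out (edgeR adjusted p up to 0.0435), all but that without HIF-1α/2α replicate 3. Every WT library lay above every other library of batch 2 for ARNTL2 and AHR, which held for 8.76% of all tested genes, and ARNTL2 was among the 66 of 22915 genes (0.288%) for which this was so in both batches.

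**Figure D2:**
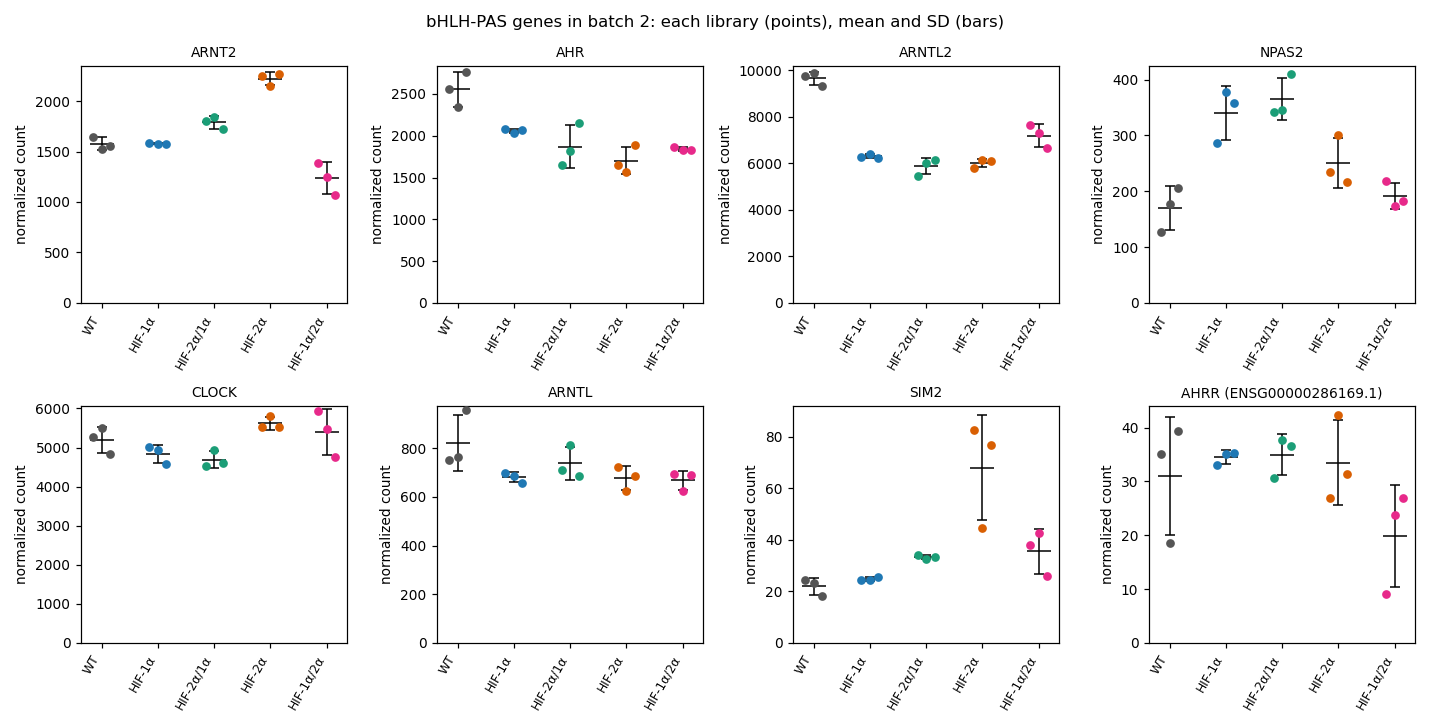
Normalized counts of 8 bHLH-PAS gene rows in the 5 groups of batch 2, with each library as a point, the mean as a horizontal bar and the SD of 3 libraries as a whisker. The WT libraries of ARNTL2 (9317 to 9869) and AHR (2345 to 2767) lie above all others, and SIM2 is highest in the HIF-2α line.

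AHR, the ligand-activated receptor for aromatic compounds, was also lower in the HIF lines of batch 2. WT libraries had 2559, 2345 and 2767 normalized counts. The HIF-1α line had 2083, 2032 and 2066, the HIF-2α line 1655, 1565 and 1883, HIF-2α/1α 1644, 1811 and 2149, and HIF-1α/2α 1865, 1833 and 1827.
All 4 lines lay below WT, and neighbours among the lines overlapped. AHR fell by 0.31 (SE 0.08, edgeR adjusted p = 0.00247) in the HIF-1α line, by 0.57 (SE 0.08, edgeR adjusted p = 1.11e-07) in the HIF-2α line, by 0.44 (SE 0.08, edgeR adjusted p = 3.51e-05) in HIF-2α/1α and by 0.46 (SE 0.08, edgeR adjusted p = 7.99e-06) in HIF-1α/2α on the log2 scale, again short of 2-fold. The difference between HIF-2α and HIF-1α missed the threshold at -0.26 (95% interval -0.42 to -0.09, edgeR adjusted p = 0.0146), but passed it without a filter on low counts (-0.28, edgeR adjusted p = 0.00238) and in a fit of only these 2 groups (-0.26, edgeR adjusted p = 0.00349). The HIF-1α change was lost without WT replicate 3 (-0.25, edgeR adjusted p = 0.0359) or HIF-1α replicate 2 (-0.30, edgeR adjusted p = 0.0146).

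In batch 1, AHR was lowest in the HIF-2α KIN clone, at 401, 471 and 405 against 927, 748 and 915 in WT. These groups did not overlap. AHR fell by 1.01 on the log2 scale (SE 0.24, edgeR adjusted p = 0.00456), just past the 2-fold limit. The HIF-1β KIN clone gave 475, 519 and 723, also below WT, at -0.59 (95% interval -1.07 to -0.12, edgeR adjusted p = 0.228). In the 6 exogenous lines of batch 1, AHR log2 fold changes lay between -0.37 and 0.05 with edgeR adjusted p of 0.413 or more, and the 95% intervals for HIF-1α (-0.85 to 0.10) and HIF-2α (-0.77 to 0.18) included the sizes measured in batch 2. The call in the HIF-2α KIN clone was lost without WT replicate 1 or 3 or KIN replicate 1 or 3, where the change was -0.98 to -0.96 with edgeR adjusted p from 0.0196 to 0.0271.

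ARNT2 was the member that moved in both directions. In batch 1 the WT libraries held 1064, 1267 and 1161 normalized counts, the HIF-1β KIN clone 712, 799 and 717, and the HIF-2α KIN clone 705, 579 and 423. The HIF-2α line held 1690, 1499 and 1764 and HIF-2αDM 1467, 1387 and 1376.
Both KIN clones lay wholly below WT, and the HIF-2α line lay above every other library of the batch. ARNT2 fell by 1.03 on the log2 scale in the HIF-2α KIN clone (SE 0.16, edgeR adjusted p = 4.13e-05) and was called there. It stood at -0.65 in the HIF-1β KIN clone (SE 0.15, edgeR adjusted p = 0.0132). The replicate numbers of batch 1 pair the HIF-1β KIN libraries with WT, and a fit blocked on this number put that value past the p threshold (edgeR adjusted p = 0.00347) without reaching 2-fold. Leaving out WT replicate 2 or KIN replicate 3 kept the HIF-2α KIN change significant but took it under 2-fold (-0.95, edgeR adjusted p = 6.04e-04, and -0.85, edgeR adjusted p = 5.59e-04).
AHR and ARNT2 were 2 of 9 tested rows called lower in the HIF-2α KIN clone, against 1.79% of all tested genes, and with ARNTL2 3 of 9 passed the p threshold downwards, against 2.66%. In the HIF-2α line ARNT2 stood at 0.49 (95% interval 0.18 to 0.81, edgeR adjusted p = 0.0314), which passed with DESeq2 (0.56, adjusted p = 0.00178). It stood in HIF-2αDM at 0.28 (-0.03 to 0.60, edgeR adjusted p = 0.652), and in R27E, with 1213, 1349 and 1031 normalized counts, at 0.06 (-0.26 to 0.37, edgeR adjusted p = 1.00). The direct difference between HIF-2α and R27E was 0.44 (0.12 to 0.75, edgeR adjusted p = 0.0843) and between HIF-2α and HIF-2αDM 0.21 (-0.11 to 0.52, edgeR adjusted p = 0.488). The 3 HIF-1α lines had log2 fold changes between -0.07 and 0.07.

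In batch 2 ARNT2 separated the groups more finely. WT had 1649, 1528 and 1550 normalized counts, the HIF-1α line 1585, 1578 and 1576, HIF-2α/1α 1803, 1843 and 1720, the HIF-2α line 2248, 2153 and 2267, and HIF-1α/2α 1387, 1251 and 1074. HIF-2α was highest and HIF-1α/2α lowest, and of neighbours in the order only HIF-1α and WT overlapped.
ARNT2 rose by 0.51 in the HIF-2α line (SE 0.08, edgeR adjusted p = 3.20e-07) and fell by 0.33 in HIF-1α/2α (SE 0.08, edgeR adjusted p = 5.36e-04) on the log2 scale. Without HIF-1α/2α replicate 3 the latter was -0.24 (edgeR adjusted p = 0.0147). The HIF-1α line was at 0.00 (95% interval -0.15 to 0.16) and HIF-2α/1α at 0.20 (0.04 to 0.35, edgeR adjusted p = 0.0571). HIF-2α exceeded HIF-1α by 0.51 (SE 0.08, edgeR adjusted p = 6.95e-07), and HIF-1α/2α lay below HIF-2α by -0.84 (SE 0.08, edgeR adjusted p = 8.14e-12), the largest ARNT2 difference between lines.

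The 4 transgenes of batch 2 combine 2 structured domains with 2 IDRs, so the mean effect of each and their interaction were tested. Each combination was 1 line, and the lines also differed in HIF1A and EPAS1 counts. HIF1A was at 13251 ± 489 in HIF-1α and 9590 ± 69.4 in HIF-2α/1α. EPAS1 was at 42312 ± 639 in HIF-2α and 51173 ± 3145 in HIF-1α/2α. Domain, line and transgene level thus cannot be told apart in these contrasts. For ARNT2 the mean difference between the 2 lines with the HIF-2α structured domain and the 2 with that of HIF-1α was 0.52 (SE 0.05, edgeR adjusted p = 4.26e-10), and the mean IDR difference was -0.01 (95% interval -0.12 to 0.10). The latter average hid opposite changes. ARNT2 in HIF-1α/2α differed from that in HIF-1α by -0.33 (SE 0.08, edgeR adjusted p = 7.02e-04). In HIF-2α/1α it differed from that in HIF-2α by -0.32 (SE 0.08, edgeR adjusted p = 0.00139). The interaction was 0.65 (SE 0.11, edgeR adjusted p = 3.33e-05). In other words, each chimera was below the full-length protein with which it shares its structured domain.

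**Figure D3:**
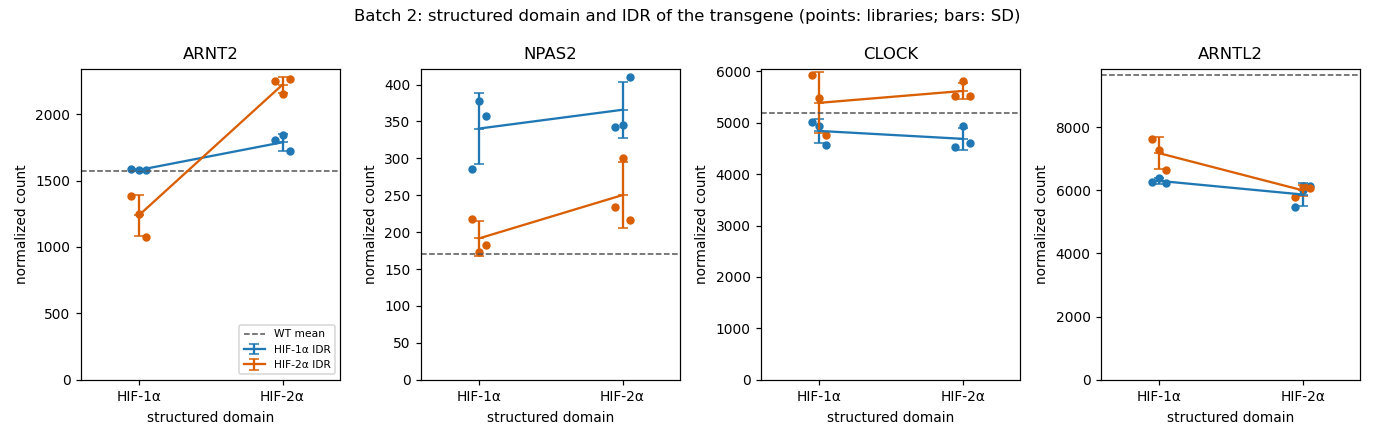
Normalized counts of ARNT2, NPAS2, CLOCK and ARNTL2 in batch 2 by the structured domain (horizontal axis) and the IDR (colour) of the transgene. Points are libraries, whiskers SDs of 3 libraries and the dashed line the WT mean. The ARNT2 lines cross, while NPAS2 is lower and CLOCK higher with the HIF-2α IDR on both structured domains.

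For the other members the IDR and the structured domain gave smaller or one-sided effects. NPAS2 was lower with the HIF-2α IDR by -0.68 (SE 0.11, edgeR adjusted p = 4.73e-06) and CLOCK, its paralogue, was higher by 0.22 (SE 0.05, edgeR adjusted p = 1.97e-04). These were 2 of 9 tested rows, against 24.7% of all tested genes at the same p threshold. With the HIF-2α structured domain ARNTL2 was lower by -0.17 (SE 0.04, edgeR adjusted p = 0.00166), which with ARNT2 made 2 of 9, against 11.4% of genes. ARNTL2 was above 0.01 there without HIF-2α/1α replicate 1 or HIF-2α replicate 1 (edgeR adjusted p up to 0.0111), while the effects on NPAS2, CLOCK and ARNT2 were kept in all 12 fits with 1 library left out. Only the ARNT2 interaction passed, 1 of 9 against 5.37% of genes, and none of these 5 effects was 2-fold. The other members had IDR differences between -0.80 and 0.78, of which SIM2 at 0.78 (0.28 to 1.28, edgeR adjusted p = 0.0120) was nearest to the threshold.

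NPAS2, the clock subunit that can replace CLOCK, was higher than WT in several exogenous lines. In batch 1 it had 219, 157 and 205 normalized counts in WT and 320, 399 and 488 in the R30E line, 352, 333 and 510 in HIF-1αDM, and 255, 367 and 341 in the HIF-1α line. None of these libraries overlapped WT, nor did those of R27E (242 to 435) and HIF-2αDM (308 to 364). The HIF-2α line (213, 174 and 261) and both KIN clones (167 to 269) did.
NPAS2 rose by 1.06 in the R30E line (SE 0.25, edgeR adjusted p = 0.00737), the 1 of 9 rows called higher there, against 2.04% of all tested genes. HIF-1αDM gave 1.05 (SE 0.25, edgeR adjusted p = 0.0311), and, blocked on the replicate number, which pairs these libraries with WT, 1.03 (edgeR adjusted p = 0.00167), a call, as with DESeq2 (1.06, adjusted p = 0.00168). The HIF-1α line gave 0.73 (95% interval 0.23 to 1.24, edgeR adjusted p = 0.0681), R27E 0.81 (0.30 to 1.31, edgeR adjusted p = 0.168) and HIF-2αDM 0.82 (0.32 to 1.33, edgeR adjusted p = 0.164), and the HIF-2α line 0.15 (-0.36 to 0.66).
The R30E call was kept only in the fit without R30E replicate 1. The other 5 fits with 1 library left out gave 0.89 to 1.15 with edgeR adjusted p from 0.0179 to 0.0656. NPAS2 in the mutants was not separated from the functional proteins by a direct test, at -0.33 (-0.83 to 0.18) for HIF-1α against R30E, -0.32 (-0.82 to 0.19) against HIF-1αDM, -0.66 (-1.17 to -0.15, edgeR adjusted p = 0.113) for HIF-2α against R27E and -0.68 (-1.19 to -0.17, edgeR adjusted p = 0.0924) against HIF-2αDM.

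In batch 2 NPAS2 was highest in the lines that carry the HIF-1α IDR. WT had 127, 178 and 206 normalized counts, the HIF-1α line 286, 377 and 358, HIF-2α/1α 343, 345 and 409, the HIF-2α line 234, 301 and 216, and HIF-1α/2α 218, 173 and 183. Only HIF-1α/2α overlapped WT, and each group overlapped its neighbour in the order of means.
NPAS2 rose by 1.12 in HIF-2α/1α (SE 0.16, edgeR adjusted p = 6.10e-07), a call, by 1.00 in the HIF-1α line (SE 0.16, edgeR adjusted p = 4.51e-06), at the 2-fold limit but not past it, and by 0.57 in the HIF-2α line (SE 0.17, edgeR adjusted p = 0.00540). HIF-1α/2α was at 0.19 (95% interval -0.15 to 0.53, edgeR adjusted p = 0.435). Without WT replicate 1 the HIF-2α/1α change was 0.94 (edgeR adjusted p = 5.35e-05), under 2-fold, and the HIF-2α change was lost without WT replicate 1 or 2 or HIF-2α replicate 2 (edgeR adjusted p up to 0.0889).
Between lines, NPAS2 was lower in HIF-1α/2α than in HIF-1α by -0.81 (SE 0.16, edgeR adjusted p = 1.08e-04), kept in all 6 fits with 1 library left out. It was higher in HIF-2α/1α than in HIF-2α by 0.54 (SE 0.16, edgeR adjusted p = 0.00985), kept in 1 of 6 such fits, that without HIF-2α replicate 2.

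**Figure D4:**
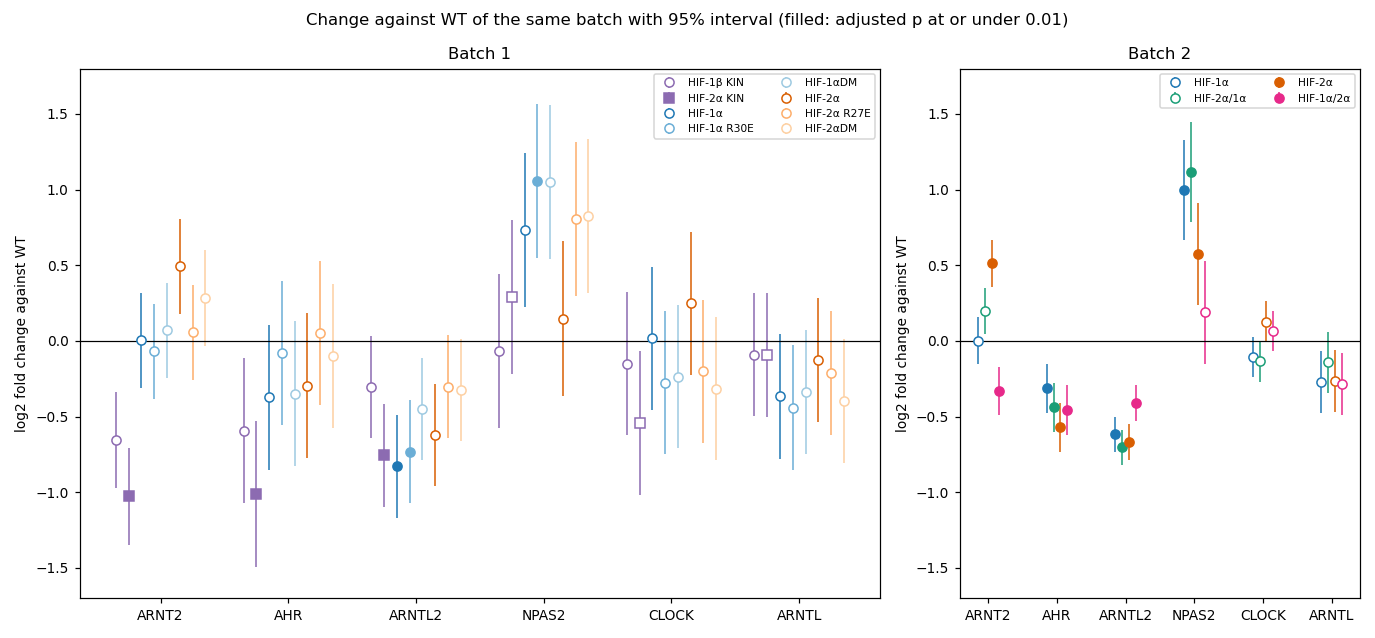
Log2 fold change against WT of the same batch for 6 genes, with 95% intervals. Each colour is a group (squares mark the HIF-2α KIN clone) and filled symbols have an adjusted p of 0.01 or less. ARNTL2 is at or below -0.30 in all 12 comparisons, and the intervals are narrower in batch 2.

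CLOCK and ARNTL, which encode the central activators of the circadian clock, moved little. CLOCK had 1348, 1194 and 1373 normalized counts in WT of batch 1, and its log2 fold changes lay between -0.54 and 0.25, none past the threshold. The value at -0.54, in the HIF-2α KIN clone (95% interval -1.02 to -0.07, edgeR adjusted p = 0.154), came from counts of 484, 1079 and 1108, in which replicate 1 stood well below the others.
In batch 2 CLOCK had 5276, 5493 and 4830 in WT, 5011, 4942 and 4577 in HIF-1α, 5527, 5806 and 5528 in HIF-2α, 4526, 4931 and 4611 in HIF-2α/1α, and 5934, 5474 and 4758 in HIF-1α/2α. Neighbouring groups overlapped throughout, and no line differed from WT by more than 0.14 on the log2 scale. CLOCK was nevertheless higher in HIF-2α than in HIF-1α by 0.23 (SE 0.07, edgeR adjusted p = 0.00647), and lower in HIF-2α/1α than in HIF-2α by -0.26 (SE 0.07, edgeR adjusted p = 0.00212). The former was lost in 5 of 6 fits with 1 library left out, all but that without HIF-1α replicate 1 (edgeR adjusted p up to 0.0528), and the latter without HIF-2α/1α replicate 1 or 3 or HIF-2α replicate 2 (edgeR adjusted p up to 0.0252).
ARNTL had 378, 341 and 392 normalized counts in WT of batch 1 and between 232 and 392 in the other libraries, with log2 fold changes from -0.44 to -0.09. In batch 2 it had 751, 763 and 956 in WT and 624 to 814 elsewhere, with log2 fold changes of -0.27 in HIF-1α (edgeR adjusted p = 0.0439), -0.26 in HIF-2α (edgeR adjusted p = 0.0405), -0.28 in HIF-1α/2α (edgeR adjusted p = 0.0254) and -0.14 in HIF-2α/1α (edgeR adjusted p = 0.360). No ARNTL comparison passed 0.01.

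SIM2 was the lowest member with a call. In batch 2 it had 82.6, 44.6 and 76.7 normalized counts in the HIF-2α line against 24.4, 23.4 and 18.1 in WT, 24.3, 24.4 and 25.7 in HIF-1α, 34.1, 32.6 and 33.2 in HIF-2α/1α, and 38.0, 42.6 and 25.8 in HIF-1α/2α. The HIF-2α libraries were above all others, with replicate 2 only just so.
SIM2 rose by 1.64 in the HIF-2α line (SE 0.35, edgeR adjusted p = 1.77e-04), kept in all 6 fits with 1 library left out, and exceeded the HIF-1α line by 1.47 (SE 0.35, edgeR adjusted p = 0.00107). Without HIF-2α replicate 1 the latter was 1.30 (edgeR adjusted p = 0.0139). Against HIF-1α/2α, HIF-2α was not separated at the threshold (-0.94 for HIF-1α/2α minus HIF-2α, 95% interval -1.62 to -0.25, edgeR adjusted p = 0.0469). In batch 1 no library had more than 18 SIM2 reads and 4 had 0. The HIF-2α line had 6.39, 2.97 and 1.08 normalized counts against 4.16, 2.86 and 2.14 in WT. The interval of the log2 fold change in that line, -2.21 to 2.46, left a change of the size seen in batch 2 undetectable at such low counts.

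AHRR, the repressor of AHR, gave few reads under either ID and no call. The ID ENSG00000063438 had at most 9 reads per library in batch 1 and 11 in batch 2. The ID ENSG00000286169, which GENCODE v44 no longer lists, had 6 to 79 reads in batch 1 and 11 to 44 in batch 2. Reads of AHRR may be split between these rows by the counting, or counted in neither, so both are uncertain. The smallest edgeR adjusted p over all comparisons of either row with WT was 0.122, for ENSG00000063438 in HIF-2α/1α at 1.98 (95% interval 0.14 to 3.83).

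Counted over comparisons, the 9 tested rows gave few calls. In batch 1, 3 of 72 member-by-line pairs were called against WT and 6 passed the p threshold alone. In the HIF-1β KIN, HIF-1α, HIF-1αDM, HIF-2α, R27E and HIF-2αDM comparisons no member was called, where 1.38%, 3.79%, 0.457%, 5.72%, 0.496% and 0.474% of all tested genes were. With unadjusted p under 0.05 there were 19 of 72 pairs, and DESeq2 gave 10 pairs at its adjusted p and 2 calls. NPAS2 in HIF-1αDM was a call with DESeq2 and in the fit blocked on the replicate number.
The functional transgenes were not separated from their mutants for any member (0 of 36 pairs), where 1.75% and 1.37% of genes were called for HIF-1α against R30E and DM, and 3.63% and 3.96% for HIF-2α against R27E and DM. Here 5 pairs had an unadjusted p under 0.05, and DESeq2 passed 1 at its adjusted p, ARNT2 in HIF-2α against R27E, with no call. HIF-2α against HIF-1α in batch 1 gave 0 of 9 with edgeR and DESeq2, against 2.4% of genes, with 2 at an unadjusted p under 0.05. The test over all groups at once passed ARNT2 (edgeR adjusted p = 6.77e-07), NPAS2 (edgeR adjusted p = 0.00130) and ARNTL2 (edgeR adjusted p = 0.00305), 3 of 9 rows against 14.6% of genes.

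In batch 2, 2 of 36 pairs were called against WT and 14 passed the p threshold, 3 of 9 rows in HIF-1α (against 17.2% of genes), 3 of 9 in HIF-2α/1α (16.7%), 5 of 9 in HIF-2α (27.4%) and 3 of 9 in HIF-1α/2α (27.8%). Calls that also met the 2-fold limit were 1 of 9 rows in HIF-2α/1α (against 3.49% of genes) and 1 of 9 in HIF-2α (7.58%), and 0 of 9 in HIF-1α (4.39%) and HIF-1α/2α (7.78%). Between lines 1 of 45 pairs was called, in HIF-2α against HIF-1α, where 3.78% of genes were called and 3 of 9 rows passed the p threshold against 17.6% of genes.
The corresponding counts were 0 of 9 rows for HIF-2α/1α against HIF-1α (2.16% of genes), 2 of 9 for HIF-1α/2α against HIF-2α (13.7%), 3 of 9 for HIF-1α/2α against HIF-1α (20.3%) and 3 of 9 for HIF-2α/1α against HIF-2α (16.1%). Of the first comparison, 1 row had an unadjusted p under 0.05 and DESeq2 passed none. Over all groups of batch 2, 6 of 9 rows differed, against 38.4% of genes, and these were ARNTL2, AHR, CLOCK, SIM2, NPAS2 and ARNT2.

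HIF-1α and HIF-2α lines were measured in both batches, and no member's response to them was found to differ between batches. The HIF1A log2 fold change in the HIF-1α line was 3.65 in batch 1 and 5.49 in batch 2. That of EPAS1 in the HIF-2α line was 1.62 and 1.75. The response to HIF-1α was -0.83 in batch 1 and -0.62 in batch 2 for ARNTL2, 0.73 and 1.00 for NPAS2, and -0.37 and -0.31 for AHR. The response to HIF-2α was -0.62 and -0.67 for ARNTL2, 0.49 and 0.51 for ARNT2, -0.30 and -0.57 for AHR, and 0.15 and 0.57 for NPAS2.
In a joint fit of the 18 libraries, 0 of 18 gene-by-line interactions passed by edgeR or DESeq2 and 0 had an unadjusted p under 0.05, while 0.00374% and 0% of all 26763 genes were called. The intervals of the difference were -0.28 to 0.39 for ARNTL2 and -0.54 to 0.76 for NPAS2 under HIF-1α, and -0.42 to 0.18 for ARNT2 and -0.87 to 0.03 for AHR under HIF-2α.

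Among genes that act with the members, ARNT itself did not pass the test in any comparison with WT, with log2 fold changes of -0.54 to -0.00 in batch 1 and -0.15 to 0.06 in batch 2. Of 10 other bHLH-PAS and coactivator genes, 9 were tested, and those called against WT were the manipulated HIF1A and EPAS1, in batch 1 NPAS1, and in batch 2 NPAS3, a neuronal member with a mean of 4.34 normalized counts that rose in HIF-1α/2α (3.90, edgeR adjusted p = 0.00551). NPAS3 was named after its values were seen. HIF1A also rose in the HIF-2α line, by 1.91 in batch 1 (SE 0.24, edgeR adjusted p = 1.37e-06) and 1.67 in batch 2 (SE 0.08, edgeR adjusted p = 4.25e-21), and was at -0.19 and -0.33 in R27E and HIF-2αDM. In the chimeras both HIF1A and EPAS1 rows receive transgene reads.
NPAS1, a neuronal bHLH-PAS repressor, rose by 2.43 in the HIF-2α KIN clone (SE 0.36, edgeR adjusted p = 3.52e-05), from 22.9 to 29.1 normalized counts in WT to 92.8 to 173, and by 1.51 and 1.63 in the HIF-1α and R30E lines (edgeR adjusted p = 0.00645 and 0.00430). In batch 2 its log2 fold changes against WT were between -0.72 and 0.58 and none passed.

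The 15 genes of a list of repressors and outputs of the circadian clock were all tested. Against WT in batch 2, 2 were called higher and 0 lower in HIF-1α (2 higher and 0 lower in HIF-2α/1α, 2 and 2 in HIF-2α, 1 and 1 in HIF-1α/2α), where 4.39%, 3.49%, 7.58% and 7.78% of all tested genes were called in either direction. Their median log2 fold changes were 0.23, 0.17, 0.28 and 0.16, beside 0.03, 0.03, 0.07 and 0.08 over all tested genes. In batch 1, 1 was called higher in HIF-1α, and 1 higher and 1 lower in the HIF-2α KIN clone, against 3.79% and 4.14% of all tested genes, and 0 in the other 6 lines. Besides the genes below, these calls were NR1D1, a repressor of ARNTL (1.04 in HIF-2α of batch 2), and the output gene HLF (lower in HIF-2α and HIF-1α/2α). NR1D1 and HLF were named after their values were seen, and HLF had a mean of 6.25 normalized counts over the libraries of batch 2.
CIART, a repressor of CLOCK-ARNTL dimers, rose in both batch 2 lines with the HIF-1α IDR, from 318 to 405 normalized counts in WT to 1015 to 1143 in HIF-1α (1.64, SE 0.12, edgeR adjusted p = 1.03e-15) and 863 to 948 in HIF-2α/1α (1.41, SE 0.12, edgeR adjusted p = 2.02e-13). In HIF-2α it was at 0.28 and in HIF-1α/2α at -0.10, neither past the threshold. In batch 1 CIART was at 1.31 in the HIF-1α line (edgeR adjusted p = 0.126), -1.06 in R30E and -0.36 in HIF-1αDM, and no comparison with WT passed. The largest was -2.19 in the HIF-1β KIN clone (SE 0.54, edgeR adjusted p = 0.0181). Compared directly, HIF-1α exceeded R30E by 2.37 (SE 0.53, edgeR adjusted p = 0.00647), a call, and HIF-1αDM by 1.67 (edgeR adjusted p = 0.0894).
NFIL3, a repressor of clock output genes, rose in both batch 2 transgenic lines with the HIF-2α IDR, from 3851 to 4360 in WT to 8498 to 9095 in HIF-2α (1.13, SE 0.06, edgeR adjusted p = 1.51e-19) and 7756 to 9244 in HIF-1α/2α (1.08, SE 0.06, edgeR adjusted p = 7.74e-19), and was at 0.02 and 0.01 in the others. In batch 1 NFIL3 rose in the HIF-2α line (0.89, SE 0.22, edgeR adjusted p = 0.00645), short of 2-fold, and was at -0.08 in R27E, -0.33 in HIF-2αDM and -0.06 in the HIF-2α KIN clone, none past the threshold.
BHLHE41 (DEC2), a repressor that competes for E-boxes, fell by 1.14 in HIF-2α (SE 0.07, edgeR adjusted p = 2.24e-18), from 4299 to 4773 in WT to 1981 to 2050. It fell by 0.44 in HIF-2α/1α (edgeR adjusted p = 1.61e-06) and was at 0.10 in HIF-1α/2α. In batch 1 BHLHE41 fell by 1.46 in the HIF-2α KIN clone (SE 0.16, edgeR adjusted p = 4.57e-07) and by 0.81 in the HIF-2α line (SE 0.16, edgeR adjusted p = 8.31e-04). DBP, an output activator driven through E-boxes, rose in HIF-1α of batch 1 by 2.36 (SE 0.49, edgeR adjusted p = 0.00185) and of batch 2 by 1.76 (SE 0.44, edgeR adjusted p = 0.00203), in HIF-2α/1α by 1.60 (SE 0.45, edgeR adjusted p = 0.00571) and in the HIF-2α KIN clone by 1.94 (SE 0.49, edgeR adjusted p = 0.00845). DBP was also above WT, short of the threshold, in the HIF-2α line of batch 1 (1.78, edgeR adjusted p = 0.0134) and batch 2 (1.22, edgeR adjusted p = 0.0321), in HIF-1α/2α (1.36, edgeR adjusted p = 0.0145) and in R30E (1.66, edgeR adjusted p = 0.0396), and its log2 fold changes in the other 4 lines of batch 1 were 0.13 to 1.59.

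Of 10 targets and chaperones of AHR, 9 were tested in each batch. CYP1B1, a monooxygenase and classical AHR target, was the 1 gene of this list called against WT in either batch. In batch 1 its call was in the HIF-2α line, where 5.72% of all tested genes were called. In batch 2 it was called in the HIF-2α line (7.58% of all tested genes) and in HIF-1α/2α (7.78%). At the p threshold alone, batch 2 had 4 of 9 genes lower and 1 higher in HIF-1α (17.2% of all tested genes in either direction). HIF-2α/1α had 3 lower and 1 higher (16.7%), the HIF-2α line 4 and 0 (27.4%), and HIF-1α/2α 3 and 0 (27.8%). CYP1B1 had 8883 to 10333 normalized counts in WT of batch 2, 4426 to 5828 in HIF-1α, 6461 to 8725 in HIF-2α/1α, 1668 to 2208 in HIF-2α and 241 to 296 in HIF-1α/2α. No group overlapped WT.
CYP1B1 fell in all 4 lines, with log2 fold changes of -5.19 in HIF-1α/2α (SE 0.12, edgeR adjusted p = 2.02e-34), -2.29 in HIF-2α (SE 0.10, edgeR adjusted p = 4.37e-24), -0.91 in HIF-1α (SE 0.09, edgeR adjusted p = 3.84e-11) and -0.41 in HIF-2α/1α (SE 0.09, edgeR adjusted p = 4.74e-04). Those of AHR were -0.46, -0.57, -0.31 and -0.44 in these lines, and neighbouring lines overlapped for AHR. A link between the CYP1B1 and AHR changes was not tested. In batch 1 CYP1B1 fell by 1.57 in the HIF-2α line (SE 0.39, edgeR adjusted p = 0.00648), from 4303 to 7458 in WT to 1685 to 2004, and in the HIF-2α KIN clone, where AHR was lowest, it was at 0.72 (SE 0.38, edgeR adjusted p = 0.276).

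Lastly, the genes whose group means followed each member most closely in both batches were looked up among 12461 genes, as Pearson's r over 9 group means in batch 1 and 5 in batch 2. ARNTL2 was closest to USP31 (r = 0.976 and 0.975) and ZBTB26 (0.955 and 0.986), ARNT2 to PHETA2 (0.947 and 0.982) and TMED4 (0.956 and 0.938), and NPAS2 to EFHD1 (0.950 and 0.993) and CCN3 (0.911 and 0.958). AHR was closest to TRMT2B (0.941 and 0.980) and ARAP2 (0.915 and 0.953), CLOCK to ARHGAP32 (0.947 and 0.934) and DYNC1LI2 (0.954 and 0.933), and ARNTL to CHAF1A (0.930 and 0.880) and LRCH3 (0.933 and 0.866). These are maxima over many genes, the points share libraries and depth with the member, and they are given as a description.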

How the data were processed

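PolyA RNA-seq was read in 42 libraries. Per the labels and the study's methods, the authors aligned reads to hg38 with STAR, kept uniquely aligned reads and counted them per gene with HTSeq in union mode, without strand, on GENCODE v32. The deposited values are raw counts for 60609 genes per library, with no normalization. All 9 symbols overlap at least 1 gene on the opposite strand in GENCODE v44, and without strand reads in such overlaps cannot be told apart. Spike-in RNA of batch 1 was not used here.

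Each batch was fitted separately with edgeR 4.0.16 (R 4.3.3): TMM scaling, quasi-likelihood tests with group as the only term, Benjamini-Hochberg adjustment over genes whose normalized counts averaged 0.5 or more (23410 in batch 1, 28724 in batch 2), and calls at an adjusted p of 0.01 or less with a 2-fold change or more, as in the study. Intervals are 95% intervals of that fit. Batch interactions came from a joint fit of WT with both full-length transgenes. Fits were tested on simulated counts. The alternatives were DESeq2 1.42.0, median-ratio size factors, other count filters, only the groups compared, a replicate block, an adjusted p of 0.05 without a fold limit, and each library left out.

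Members, lists and tests were chosen with earlier results of these data known. All 9 members are named. A gene of the clock list is not reported here and is left out of its counts. HIF1A, EPAS1, ARNT and, of each list and batch, up to 3 called genes with the largest change against WT and a mean of 50 or more normalized counts are also named. Pattern likeness was the smaller of the Pearson r in the 2 batches, taken on log2 CPM (prior count 2). Same-numbered libraries of batch 1 deviated from their group means together with WT in 21 of 24 pairs (r over 0.1, mean 0.265), in all 3 pairs for 5 of 8 groups, HIF-1β KIN and HIF-1αDM among them, but in batch 2 in 0 of 12. P-values measure the spread between libraries within groups, which each fit shares over all its groups. Lengths and overlaps come from GENCODE v44, promoters from RefSeq GRCh38.p14.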

Additional observations from a re-analysis of the deposited data

Results flagged for a closer look

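The ARNT2 difference between lines with different IDRs was not the same on both structured domains in batch 2. This was the 1 member and contrast for which a test of the difference between effects passed. HIF-1α/2α minus HIF-1α was -0.33 and HIF-2α/1α minus HIF-2α was -0.32, as log2 fold changes, and the interaction was 0.65 (SE 0.11, edgeR adjusted p = 3.33e-05). Leaving out each of the 12 libraries in turn gave 0.56 to 0.74 with edgeR adjusted p up to 2.07e-04.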

How the results depend on the processing

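Of 498 checks of member changes that had passed a threshold, 433 kept direction and threshold, 65 kept the direction only and 0 reversed. Among those kept, 30 checks of changes that passed by p alone and 6 of calls were not refits. They applied an adjusted p of 0.05 without a fold limit to the main fit, so that their outcome was fixed in advance. Against WT in batch 1 the 3 calls became 1 with median-ratio size factors, 1 with only the groups compared, 10 at an adjusted p of 0.05 without a fold limit and 1 to 4 with single libraries left out (1 without WT replicate 1, 2 or 3 or HIF-2α KIN replicate 3). AHR and ARNT2 in the HIF-2α KIN clone slipped under 2-fold with median-ratio size factors (-0.97 and -0.99) and with DESeq2 (-0.97 and -0.99), and AHR alone with the filterByExpr filter (-0.99) and with only the groups compared (-0.99). With only the groups compared NPAS2 in R30E lost its call (adjusted p = 0.0222), and ARNTL2 in the HIF-2α KIN clone and R30E (0.0195 and 0.0190) and in HIF-1α/2α against HIF-1α (0.0139) missed 0.01. NPAS2 in HIF-2α/1α against HIF-2α missed it with median-ratio size factors (0.0101), filterByExpr (0.0138) and DESeq2 (0.0106). Against WT in batch 2 the 2 calls became 17 at 0.05 without a fold limit and 1 to 3 with libraries left out (1 without WT replicate 1). Between lines in batch 2 the 1 call became 16, and 0 to 1 with libraries left out (0 without HIF-2α replicate 1), and the 0 calls for domain contrasts became 8. With the replicate number as a block, calls against WT were 4 in batch 1 and 3 in batch 2, NPAS2 in HIF-1αDM and, at 1.00, in the HIF-1α line of batch 2 being added. ARNTL2 in the HIF-2α line of batch 1 passed with DESeq2 (0.00632), filterByExpr (0.00925), only the groups compared (0.00967) and the block (0.00365, where the lowest r of a pair was 0.0884). ARNT2 in the HIF-1β KIN clone passed with DESeq2 (9.09e-04) and filterByExpr (0.00842). In batch 2, where the numbers do not pair the libraries, the block took AHR in HIF-2α against HIF-1α to 0.00178 and the IDR effect on ARNTL2 to 0.00891. DESeq2 also passed the IDR effects on ARNTL2 (0.00912) and SIM2 (0.00642), the latter also with filterByExpr (0.00675). Low counts limit HIF3A, AHRR and, in batch 1, SIM2, for which no difference was detectable.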
